A study of Mus musculus with 6 samples.

Results

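The genes described here belong to the chemokine system: the ligand genes Ccl8, Ccl12 and Ccl5 and the receptor gene Ccr2. They were chosen by symbol, with earlier results of these data known, and all 4 were present among the 632 genes of the authors' table. The mice were 3-month-old C57BL/6 animals, and RNA was taken from prostate epithelial cells after flow sorting. The 6 libraries are 3 from control littermates, whose alleles the labels do not give, and 3 from animals labelled as conditional knockouts of E-cadherin, an adhesion receptor of epithelial cells. The labels give no Cre driver, no sorting marker and no number of mice behind each library, so p-values measure only how these libraries vary, part of which may be technical. The titles are marked L2 for all controls and L7 for all knockouts, so this mark and the genotype cannot be told apart. Levels were taken to be in FPKM, a unit inferred from the named processing tools and the form of the values. FPKM are fragment counts divided by transcript length and by library size, so levels of different genes are compared per length. The labels name both a bulk and a droplet library kit, so how well division by length suits these libraries is not known.

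CC chemokines are small secreted proteins with a pair of adjacent cysteines, which bind receptors on leukocytes and direct their migration into tissue. Ccr2 is the receptor that lets monocytes leave the bone marrow and enter inflamed tissue. In the mouse, Ccl12 is a monocyte attractant that acts through Ccr2, Ccl8 is a monocyte chemoattractant family member that binds Ccr8, and Ccl5 attracts T cells and monocytes.

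Ccl12 and Ccl8 are next to each other on chromosome 11 (GRCm38). Ccl12 lies at 82101845 to 82103400 and Ccl8 at 82115185 to 82116799, both on the plus strand. The gap is 11784 bases and holds no other protein-coding gene in GENCODE M21. Ccl5 lies on the minus strand of the same chromosome at 83525778 to 83530518, with 26 protein-coding genes between it and Ccl8. Ccr2 is on chromosome 9 at 124101950 to 124113557. The protein-coding transcripts of the ligand genes have 3 exons each and are short, with 511 bases for Ccl8, 537 for Ccl12 and 532 for Ccl5. Ccr2 has 4 protein-coding transcripts of 2265 to 5728 bases. None of the 50-base stretches of the annotated Ccl8, Ccl12 or Ccl5 transcripts occurs in a transcript of another gene (0 of 462, 534 and 909). For Ccr2 1.91% do, so a small part of its reads could have been shared.

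The sequences around the start sites are shown because the neighbours Ccl12 and Ccl8 rose together and by different amounts. They are RefSeq promoters (GRCm38.p6), 250 bases before to 50 after the start, all on the plus strand. The windows are chr11:82114935-82115234 for Ccl8, chr11:82101595-82101894 for Ccl12 and chr9:124101933-124102232 for Ccr2. The RefSeq start used for Ccr2 lies downstream of the GENCODE gene start, so nearly all of its window is inside the annotated gene, while the Ccl8 and Ccl12 windows begin before their genes. Capitals mark the TATA box TATAAAA.
Ccl8: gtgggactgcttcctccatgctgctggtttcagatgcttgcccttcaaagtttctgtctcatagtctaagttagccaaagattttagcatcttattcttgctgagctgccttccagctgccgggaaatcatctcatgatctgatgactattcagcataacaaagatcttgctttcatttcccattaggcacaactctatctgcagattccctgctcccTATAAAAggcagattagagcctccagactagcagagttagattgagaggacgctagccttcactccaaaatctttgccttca
Ccl12: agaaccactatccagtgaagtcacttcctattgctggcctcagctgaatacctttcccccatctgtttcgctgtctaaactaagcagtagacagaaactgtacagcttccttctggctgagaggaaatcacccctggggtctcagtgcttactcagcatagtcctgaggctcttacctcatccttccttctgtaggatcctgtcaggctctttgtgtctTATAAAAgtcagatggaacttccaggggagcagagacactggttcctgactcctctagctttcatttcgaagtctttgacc
Ccr2: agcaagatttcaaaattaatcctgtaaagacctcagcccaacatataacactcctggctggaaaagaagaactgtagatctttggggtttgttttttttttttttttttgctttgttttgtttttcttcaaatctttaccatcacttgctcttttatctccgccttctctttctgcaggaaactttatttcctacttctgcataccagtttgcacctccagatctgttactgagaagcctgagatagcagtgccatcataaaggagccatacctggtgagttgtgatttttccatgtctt

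The Ccl8 and Ccl12 promoters each hold 1 TATAAAA, whose first base is at -32 from the start in Ccl8 and at -31 in Ccl12. No RefSeq promoter was matched to Ccl5, so its sequence was not searched. The Ccr2 window, which covers a different kind of region, holds none. Of 32544 RefSeq promoter windows of this length 5.44% hold these letters on either strand. The other motifs searched, on both strands, were the interferon-stimulated response element core AAANNGAAA, the STAT core TTCNNNGAA and the AP-1 motif TGANTCA, which occur in 10.5%, 8.33% and 7.79% of all windows. None of these letters is in the 3 windows shown, so no motifs overlap there. Aligned over their length, the Ccl8 and Ccl12 windows are identical at 180 of 323 alignment columns (55.7%), against 45.8% for Ccl8 with Ccr2 and 48.2% for Ccl12 with Ccr2. The longest run that Ccl8 and Ccl12 share is 11 bases. A match is a description of letters, and binding was not measured.

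All 4 genes were higher in every knockout library than in every control library, and all 4 rose in the knockout by limma. This is to be read against the whole list, in which limma called 65.3% of the 632 genes as risen and 66.9% had all knockout libraries above all controls. The authors' name for the list refers to differential genes between groups, and the criteria are not stated. Where genes were picked for a difference in these libraries, the p-values and the lack of overlap are no independent evidence of one. The median ratio of knockout to control means was 3.22 over the 4 genes and 1.91 over the 623 listed genes with a finite ratio. Because the 4 genes were chosen with earlier results of these data known, the higher median only describes them. The size of the change ran from 2.22-fold for Ccl5 to 10.4-fold for Ccl8.

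**Figure D1:**
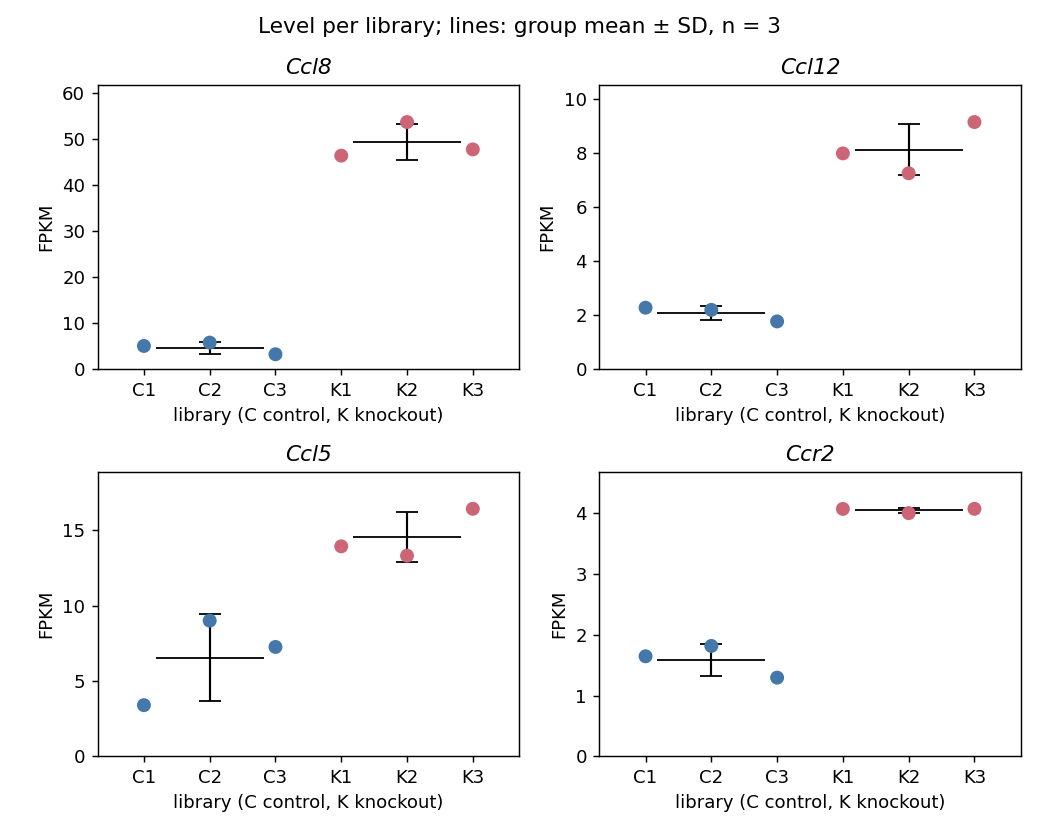
FPKM of Ccl8, Ccl12, Ccl5 and Ccr2 (vertical axes, linear from 0) in each of the 6 libraries, with C for control and K for knockout; points are libraries and lines are group means with SD, n = 3. The groups do not overlap for any of the 4 genes, Ccl8 goes from 3.31 to 5.82 FPKM in control to 46.4 to 53.6 in knockout libraries, and Ccl5 varies most among controls.

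Ccl8 was at 5.10, 5.82 and 3.31 FPKM in control libraries 1, 2 and 3, and at 46.4, 53.6 and 47.7 FPKM in knockout libraries 1, 2 and 3. The lowest knockout library was 7.96 times the highest control. The group means were 4.74 ± 1.30 and 49.2 ± 3.87 FPKM (SD, n = 3), a 10.4-fold rise (limma log2 difference 3.15, SE 0.20, adjusted p = 0.000608). Only 2 of the 632 genes had a larger limma difference, while by ratio of means Ccl8 ranked 8 among the 623 genes with a finite ratio. By level, Ccl8 ranked 317 among the 632 genes in control libraries and 106 in knockout libraries.

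Ccl12 was at 2.29, 2.21 and 1.78 FPKM in the control libraries and at 7.99, 7.26 and 9.15 FPKM in the knockout libraries. Its controls lay close together, with a coefficient of variation of 13.1%, and its lowest knockout library was 3.18 times its highest control. The means were 2.09 ± 0.273 and 8.14 ± 0.955 FPKM (SD, n = 3), a 3.89-fold rise (limma log2 difference 1.56, SE 0.15, adjusted p = 0.00119). Ccl12 had a larger limma difference than 93.7% of the listed genes.

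Ccl5 was at 3.39, 9.00 and 7.26 FPKM in the control libraries and at 13.9, 13.3 and 16.4 FPKM in the knockout libraries. Control library 1 was low and the other controls were closer to the knockouts, so that the lowest knockout was 1.48 times the highest control. The means were 6.55 ± 2.87 and 14.6 ± 1.65 FPKM (SD, n = 3), a 2.22-fold rise (limma log2 difference 1.12, SE 0.31, adjusted p = 0.0172). The coefficient of variation was 43.8% among controls and 11.3% among knockouts. Ccl5 did not pass limma without knockout replicate 3 (adjusted p = 0.0526), and over the 6 fits that each left out 1 library the adjusted p ran from 0.0119 to 0.0526.

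Ccr2 was at 1.65, 1.82 and 1.30 FPKM in the control libraries and at 4.08, 4.01 and 4.08 FPKM in the knockout libraries. The knockout libraries were nearly equal, with a coefficient of variation of 1.01% against 16.8% among controls. The means were 1.59 ± 0.266 and 4.05 ± 0.0408 FPKM (SD, n = 3), a 2.55-fold rise (limma log2 difference 0.97, SE 0.13, adjusted p = 0.00191). With 1 value per gene and library for all sorted cells together, a change in the number of cells that carry a transcript and a change in RNA per cell cannot be told apart.

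**Figure D2:**
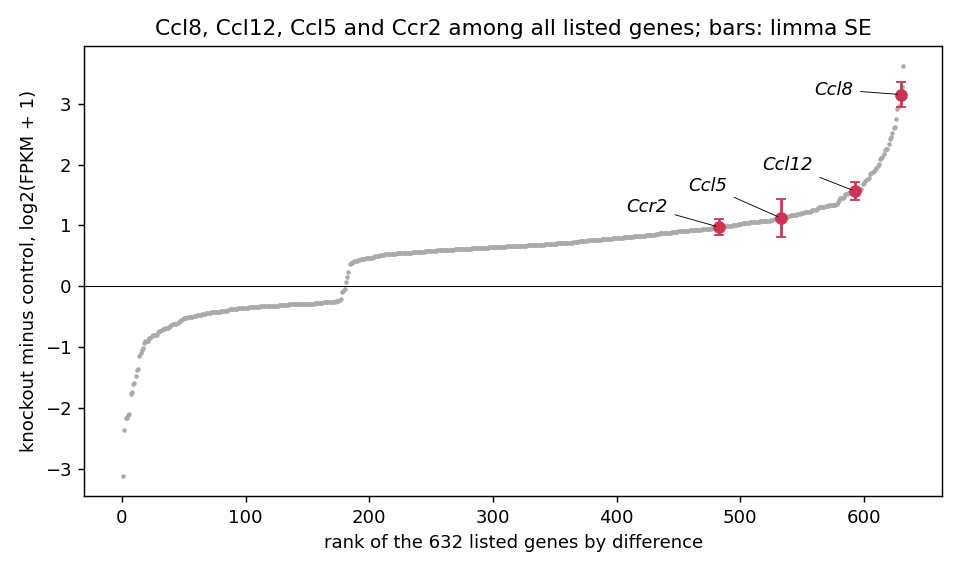
Limma difference, knockout minus control on the log2(FPKM + 1) scale (vertical axis), of the 632 listed genes in rank order (horizontal axis), with Ccl8, Ccl12, Ccl5 and Ccr2 in red and bars for the limma SE. Ccl8 (3.15) is near the top, with 2 genes above it, while Ccl5 (1.12) and Ccr2 (0.97) lie in the long shoulder of listed genes.

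The rises depended in part on the scale and on how the selection was treated. On the log2(FPKM + 1) scale the median difference of all listed genes was 0.66. With knockout values centred on that median, Ccl8 was 2.49 and Ccl12 0.90 above it, and both were called by limma (adjusted p = 0.00179 and 0.00429). Ccl5, at 0.46, and Ccr2, at 0.31, were still higher and were not called on that scale (adjusted p = 0.333 and 0.121). Of all calls, rises were 90.0% on the deposited scale and 29.3% after this centring, which places as many genes below 0 as above it by construction. With p-values adjusted over the 21951 protein-coding genes of the annotation instead of the list, 2 of the 4 genes, Ccl8 and Ccl12, were called, while Ccl5 (adjusted p = 0.596) and Ccr2 (adjusted p = 0.0664) were not.

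Of 21 CC ligand genes 5 were in the table, these 3 and Ccl6 and Ccl7. All 5 rose, by a median of 3.89-fold, while 65.3% of all genes in the table rose. Ccl7, a monocyte attractant that acts through Ccr2 and lies on the other side of Ccl11 from Ccl12, went from 0.524 ± 0.207 to 2.07 ± 0.430 FPKM, 3.96-fold (adjusted p = 0.00278). Ccl6, near Ccl5, went from 10.9 ± 0.435 to 22.1 ± 3.70 FPKM, 2.03-fold (adjusted p = 0.00354). None of the 5 was below the median listed gene on the centred scale, where only Ccl8 and Ccl12 were called as risen. With adjustment over the annotated protein-coding genes, too, only Ccl8 and Ccl12 were called. The other 16 CC ligand genes, Ccl2, the best known Ccr2 ligand, among them, were not analysed here.

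The order of the ligands by level differed between the groups. In control libraries Ccl6 was highest, followed by Ccl5, Ccl8, Ccl12, Ccr2 and Ccl7, and the ranges of Ccl5 and Ccl8, and of Ccl12 and Ccr2, overlapped. In knockout libraries Ccl8 was highest, followed by Ccl6, Ccl5, Ccl12, Ccr2 and Ccl7, with no overlap between neighbours in the order. Ccl8 made up 22.8%, 20.1% and 14.3% of the summed FPKM of the 5 ligands in control libraries 1, 2 and 3, and 48.7%, 56.9% and 48.2% in knockout libraries 1, 2 and 3. The share of Ccl6 was 44.4% ± 5.18 in control and 23.0% ± 3.56 in knockout libraries (SD, n = 3). The share of Ccl12 overlapped between the groups, 8.52% ± 1.47 and 8.45% ± 0.771. Ccl5 took 15.2%, 31.1% and 31.5% in the controls and 14.1% to 16.6% in the knockouts, so control library 1 lay within the knockout range. The sum itself was 24.8 ± 3.63 FPKM in control and 96.1 ± 2.55 FPKM in knockout libraries, 3.88-fold higher.

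**Figure D3:**
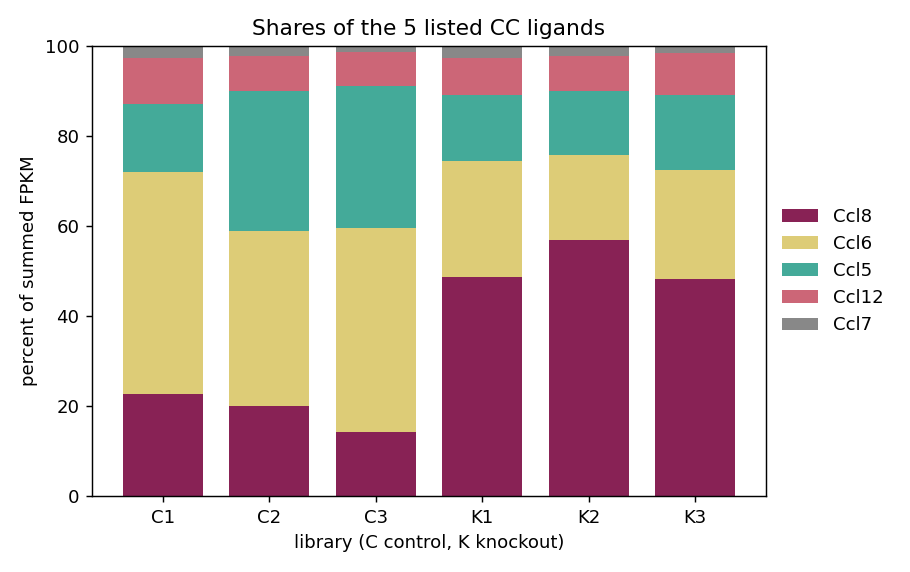
Share of each of the 5 listed CC ligand genes in their summed FPKM (vertical axis, percent) in each library (C control, K knockout). Ccl8 takes 14.3% to 22.8% in control and 48.2% to 56.9% in knockout libraries, and the Ccl12 segment stays between 7.61% and 10.2%.

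Ratios between the 4 genes within a library do not depend on how the libraries were scaled. The Ccl8 to Ccl12 ratio was 2.23, 2.64 and 1.86 in the control libraries and 5.80, 7.39 and 5.21 in the knockout libraries. The groups did not overlap, and the ratio was 2.73 times as high in knockout libraries (log2 difference 1.45, SE 0.21; two-sided exact permutation test p = 0.1, adjusted p = 0.15 over 6 pairs). The smallest p that 3 libraries against 3 can give is 0.1, so no pair could pass. Ccl8 was also higher relative to Ccr2, with ratios of 2.55 to 3.20 in control and 11.4 to 13.4 in knockout libraries, and relative to Ccl5, with 0.455 to 1.50 and 2.90 to 4.03, and neither pair overlapped (p = 0.1 and adjusted p = 0.15 for each, exact permutation). The Ccl12 to Ccr2 ratio was 1.21 to 1.39 in control and 1.81 to 2.25 in knockout libraries and did not overlap (p = 0.1, adjusted p = 0.15, exact permutation). The groups overlapped for Ccl12 to Ccl5 (0.245 to 0.674 and 0.545 to 0.574, p = 0.4, adjusted p = 0.48, exact permutation) and for Ccl5 to Ccr2 (2.06 to 5.60 and 3.33 to 4.03, p = 0.9, adjusted p = 0.9, exact permutation).

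Transcripts of the listed leukocyte genes were present in every library of these sorted epithelial cells and, like the chemokine genes, higher in knockout libraries. Markers outside the list could not be seen, so the counts below do not describe leukocyte genes as a whole. As above, 65.3% of all genes in the table rose. Of 7 pan-leukocyte genes 5 were in the table and all 5 rose. Their summed level was 15.3 to 25.4 FPKM in control and 39.4 to 42.4 FPKM in knockout libraries, and the largest limma difference among them was that of Coro1a (2.24-fold). On the centred scale 1 of them, Vav1, was below the median listed gene and 0 of the 5 were called, as were 0 of the 5 with adjustment over the annotated protein-coding genes. Ptprc, the pan-leukocyte antigen CD45, was at 1.28, 2.12 and 1.25 FPKM in control and at 3.89, 3.59 and 4.29 FPKM in knockout libraries (2.53-fold, adjusted p = 0.0041). Of 23 monocyte and macrophage genes 13 were in the table and all 13 rose, from a sum of 308 to 403 FPKM to 718 to 737 FPKM, with a median of 2.12-fold. They include the protease gene Ctss (2.41-fold), the macrophage gene Aif1 (2.50-fold), the complement gene C1qc (2.24-fold) and Cd74, the invariant chain of MHC class II (2.15-fold). After centring 4 of the 13 were called as risen, and 1 of the 13 with adjustment over the annotated protein-coding genes. No listed marker of these lists was at 0 in any library. Their part in the chemokine results was not tested.

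Set against Ptprc within each library, the groups separated for Ccl8 and Ccl12 and overlapped for Ccl5 and Ccr2. The Ccr2 to Ptprc ratio was 1.29, 0.856 and 1.04 in control and 1.05, 1.12 and 0.951 in knockout libraries, overlapping ranges with a log2 difference of -0.01 (SE 0.18, two-sided exact permutation p = 1). The Ccl5 to Ptprc ratio also overlapped, at 2.65 to 5.82 in control and 3.59 to 3.83 in knockout libraries (log2 difference -0.12, SE 0.33, exact permutation p = 0.7, adjusted p = 0.933 over 4 genes). The Ccl8 to Ptprc ratio was 3.99, 2.74 and 2.65 in control and 11.9, 15.0 and 11.1 in knockout libraries, 4.09 times as high and with no overlap (log2 difference 2.03, SE 0.23, exact permutation p = 0.1, adjusted p = 0.2). The Ccl12 to Ptprc ratio was 1.04 to 1.79 in control and 2.02 to 2.14 in knockout libraries, also without overlap (log2 difference 0.58, SE 0.23, exact permutation p = 0.1, adjusted p = 0.2). The summed monocyte and macrophage markers were also used in place of Ptprc, a denominator added after the values were seen. With them the log2 differences were 2.33 for Ccl8, 0.88 for Ccl12, 0.18 for Ccl5 and 0.28 for Ccr2, and the groups overlapped for Ccl5 alone. Cd74 was the largest part of that sum, with means of 140 FPKM in control and 300 in knockout libraries, so the sum weights the markers unequally. A ratio shows unequal change and does not show that either gene was constant.

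**Figure D4:**
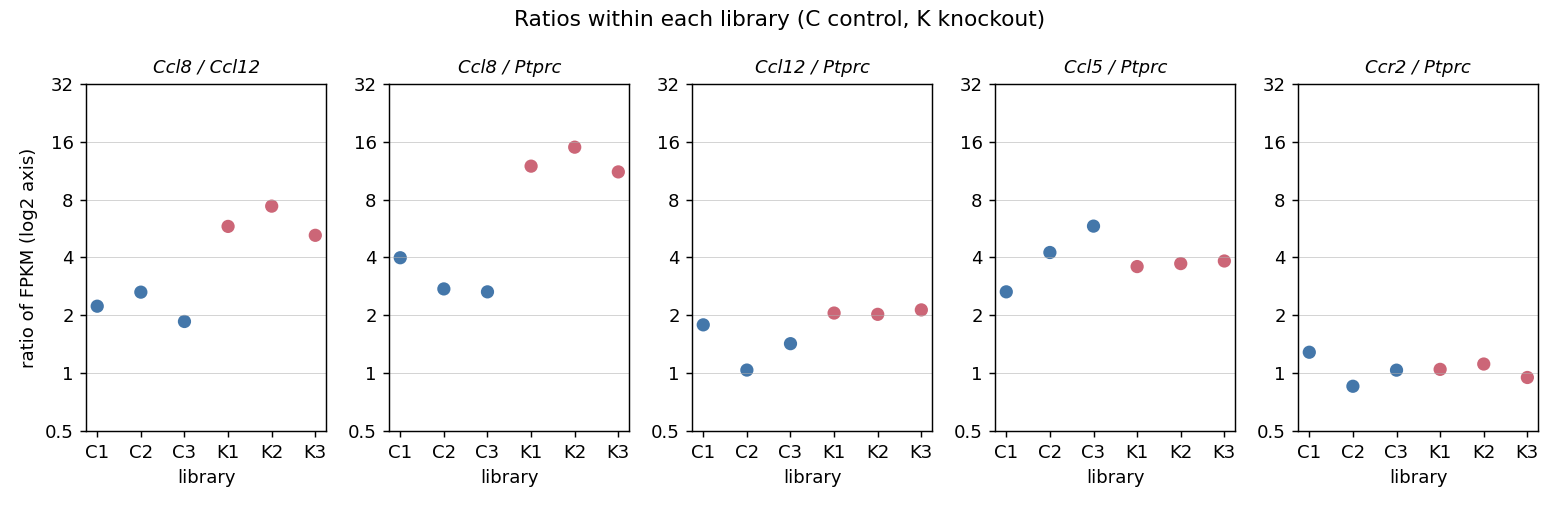
Ratios of FPKM within each library (vertical axes, log2 scale) for Ccl8 to Ccl12 and for Ccl8, Ccl12, Ccl5 and Ccr2 to Ptprc; C is control and K knockout. The Ccl8 ratios are higher in every knockout library, while Ccr2 to Ptprc stays between 0.856 and 1.29 in all 6.

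Other cell types were represented unevenly, and 65.3% of all genes in the table rose. Of 9 B and plasma cell genes 6 were listed and all 6 rose (median 3.49-fold), from a summed 105 to 173 FPKM to 393 to 579 FPKM. Igkc, Ighm and Jchain were at 3.27-fold, 3.29-fold and 3.14-fold. Igkc made up most of that sum, with means of 115 FPKM in control and 375 in knockout libraries. Of 8 dendritic cell genes 3 were listed and rose, H2-Ab1, Cd209a and Itgax, from a sum of 53.3 to 81.0 to 129 to 133 FPKM. Nearly all of that sum was H2-Ab1, with means of 61.3 FPKM in control and 127 in knockout libraries. Cd209a went from 0.867 to 2.23 FPKM and Itgax from 0.584 to 1.31, and Itgax was below the median listed gene on the centred scale. Of 16 T cell genes 1 was listed, the signalling adaptor gene Lat, which rose 3.33-fold from 0.527 ± 0.129 to 1.75 ± 0.328 FPKM, and none of 9 NK and cytotoxic genes was. T and NK cells, known sources of Ccl5, could therefore not be assessed from these lists, and the genes not listed were not analysed here. Of 9 fibroblast genes 4 were listed, Col1a1, Col1a2, Lum and Thy1, and rose by a median of 1.52-fold, from a sum of 72.0 to 91.7 to 122 to 127 FPKM, while Col1a1 was not called without knockout replicate 1 and 3 of the 4 were below the median listed gene on the centred scale. Of 12 epithelial genes 3 were listed, the basal keratins Krt5, Krt14 and Krt15, at a sum of 81.9 to 111 FPKM in control and 157 to 189 FPKM in knockout libraries, and all 3 rose, with Krt5 below the median listed gene on the centred scale. Epcam and Cdh1, the gene targeted in the knockout, were not analysed here, so neither the sort nor the genotype labels could be checked on them. None of the 6 endothelial genes was listed. After centring, 4 of the 6 B and plasma cell genes were called as risen and 0 of the 3 dendritic, 4 fibroblast and 3 epithelial genes. Lat was not called on that scale. With adjustment over the annotated protein-coding genes 1 of the 6 B and plasma cell genes was called. None of the dendritic, T cell, fibroblast or epithelial genes was called with that adjustment.

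**Figure D5:**
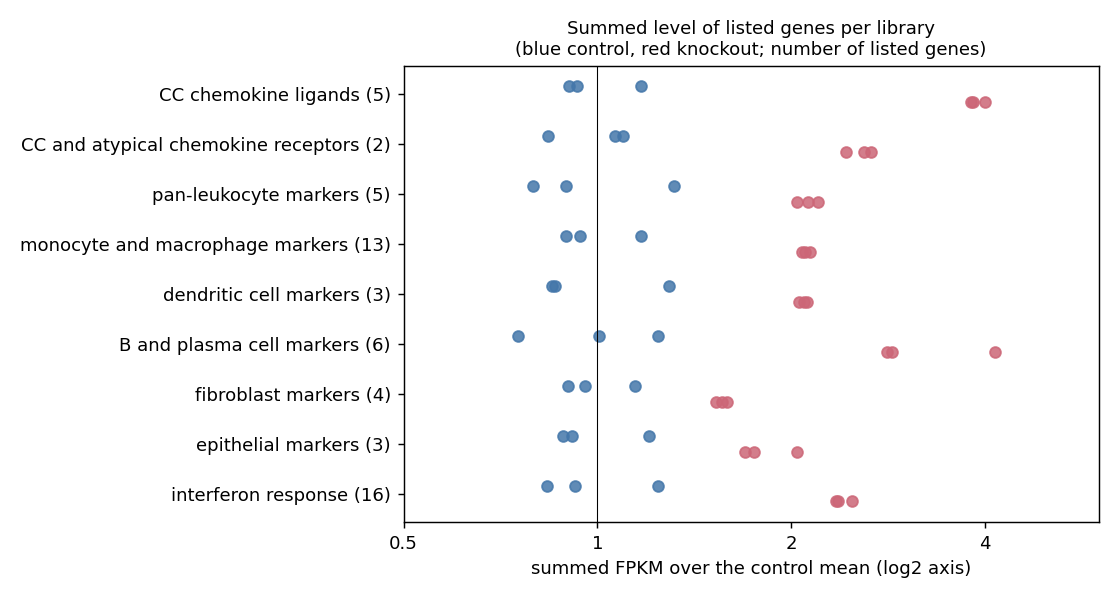
Summed FPKM of the listed genes of each group of genes, divided by the control mean (horizontal axis, log2 scale), in control (blue) and knockout (red) libraries; the number of listed genes is in brackets. The CC ligand sum is 3.88-fold higher in knockout libraries, the monocyte and macrophage sum 2.11-fold and the fibroblast sum 1.56-fold. Each sum is weighted towards its most abundant genes, such as H2-Ab1 among the dendritic cell genes.

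Among receptors, 2 of 15 CC and atypical chemokine receptor genes were listed, Ccr2 and Ccr1. Both rose, as did 65.3% of all genes in the table. Ccr1, a receptor of Ccl5 and Ccl6 on myeloid cells, was at 0.346, 0.234 and 0.273 FPKM in control and at 0.895, 0.540 and 0.774 FPKM in knockout libraries (2.59-fold, adjusted p = 0.0107). On the centred log2(FPKM + 1) scale, which compresses low values, Ccr1 was below the median listed gene and Ccr2 above it, and neither was called as risen. Neither was called with adjustment over the annotated protein-coding genes. Ccr1 and Ccr2 lie 133257 bases apart on chromosome 9. Ccr3, which lies between them and is a receptor of Ccl5, was not analysed here, nor was Ccr8.

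Of 25 CXC, XC and CX3C ligand and receptor genes 6 were in the table. These were ligands, and all 6 rose, by a median of 4.10-fold. Cxcl13, a B cell attractant, went from 3.39 ± 0.800 to 15.4 ± 3.71 FPKM, 4.54-fold, and Cxcl16 1.91-fold from 7.78 ± 1.04 to 14.8 ± 2.12 FPKM. The neutrophil attractants Cxcl1 and Cxcl2 were lower in level, from 0.203 ± 0.120 to 1.50 ± 0.551 FPKM and from 0.167 ± 0.183 to 1.07 ± 0.403 FPKM. The share of all genes in the table that rose was 65.3%, and 1 of the 6 was called after centring and 0 of the 6 with adjustment over the annotated protein-coding genes. Cxcl9 was below the median listed gene on the centred scale, and 4 of the 6 were called without control replicate 3 or knockout replicate 1, where Cxcl9 and Cxcl17 were not.

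Interferon signalling and NF-kB are known to act upstream of chemokine transcription. Of 26 interferon response genes 16 were listed and 15 rose, with a median of 2.64-fold over the 16, while 3 of the 16 were below the median listed gene on the centred scale. With 1 library left out, 14 to 16 of the 16 were called as risen. Oasl2 was 3.20-fold, Irf7 2.65-fold, Zbp1 4.05-fold and Isg15 2.63-fold higher, and Iigp1 went from 1.36 ± 0.751 to 2.47 ± 0.698 FPKM and was not called (adjusted p = 0.0732). After centring 6 of the 16 were called as risen, and 1 of the 16 with adjustment over the annotated protein-coding genes, while 65.3% of all genes in the table rose on the deposited scale. Of 17 NF-kB and monocyte growth factor genes 4 were listed and rose, and 0 of the 4 were called after centring or with that adjustment. Il1b was 4.57-fold, Icam1 2.14-fold and Nfkbie 2.04-fold higher. Csf1, the macrophage growth factor gene, went from 4.50 ± 1.28 to 6.94 ± 0.205 FPKM (adjusted p = 0.0357), was below the median listed gene on the centred scale, and was called without control replicate 2 and not when any other 1 library was left out. Their part in the chemokine results was not tested.

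On chromosome 11, 6 of 16 genes on the list of neighbours of the ligands were listed and rose, with a median of 3.41-fold. The share of all genes in the table that rose was 65.3%. Besides Ccl6 and Ccl7 they were Wfdc17 (2.86-fold), Wfdc18 (6.78-fold), Slfn1 and Slfn2, and Slfn1 was below the median listed gene on the centred scale. After centring 2 of the 6, Wfdc17 and Wfdc18, were called as risen, and 0 of the 6 with adjustment over the annotated protein-coding genes. The list was not complete for the region, and Ccl11, Ccl1, Ccl9, Ccl3 and Ccl4 on it were not analysed here. Of 11 genes listed as neighbours of Ccr2, Ccr1 was the 1 found.

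The genes with the most similar profiles were named by Pearson's r on log2(FPKM + 1) over the 6 libraries, among 527 named genes with a mean of at least 1 FPKM. The points are 2 groups of 3, so r mostly reflects the step between groups, and its median over all listed genes was 0.911 for Ccl8, 0.909 for Ccl12, 0.749 for Ccl5 and 0.919 for Ccr2. Closest to Ccl8 were Mgl2, a lectin gene of macrophages and dendritic cells (r = 0.9996), Mgp, Ifitm3, Plbd1 and Ccr2 (r = 0.9972). Closest to Ccr2 were Bcam (r = 0.9992), Plbd1, the inhibitory Fc receptor gene Fcgr2b, Mgl2 and Ccl8. Mgl2 was at 3.07, 3.22 and 2.60 FPKM in control and at 7.54, 7.65 and 7.39 FPKM in knockout libraries, which like Ccr2 and Ccl8 is lowest in control library 3 and highest among controls in control library 2. Closest to Ccl12 were Tmem40 (r = 0.9990), Ly6c1, Arc, Ctse and Capg. Closest to Ccl5 were Cyp27a1 (r = 0.9945), Tcirg1, Inf2, Bmp1 and Adamts15. Cyp27a1, a sterol hydroxylase gene, was at 11.0, 21.1 and 17.2 FPKM in control and at 28.2, 28.9 and 29.9 FPKM in knockout libraries, with the same low control library 1 as Ccl5.

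The controls ranked differently by gene. Control library 3 was the lowest control for Ccl8, Ccl12 and Ccr2, and control library 1 was the lowest for Ccl5. Control library 2, where Ptprc was highest among controls, was also the highest control for Ccl8, Ccl5 and Ccr2. Among knockouts, library 2 was highest for Ccl8 and lowest for Ccl12, Ccl5 and Ccr2. Over the 4 genes, r between pairs was 0.989 for Ccl8 with Ccl12, 0.997 for Ccl8 with Ccr2 and 0.990 for Ccl12 with Ccr2, and 0.819 to 0.823 for Ccl5 with the others.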

How the data were processed

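Per the submitters' processing notes, the tools were Cufflinks 2.2.1, TopHat2 2.0.14 and Cuffdiff and the build GRCm38; their role is not stated there. The deposited values, 1 per gene and library for 632 genes, were taken as FPKM, computed by the authors, a unit inferred from those tools and the form of the values. The authors' name for the list refers to differential genes, and the sources used here do not give the criteria. The labels name both a bulk and a droplet library kit. Depth is unknown: between control libraries at most 6 of 23, 7 of 34 and 7 of 31 ratios of values under 0.3 FPKM came within 1% of a ratio of small whole numbers, so reads were not recovered.

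All 632 genes were fitted on log2(FPKM + 1) in limma 3.58.1 (R 4.3.3, prior dependent on the mean), with Benjamini-Hochberg adjustment and a threshold of 0.05. Changes of low genes are understated by the pseudocount of 1. Folds are knockout over control means without a pseudocount. Ratios within libraries were tested with scipy 1.17.1 by two-sided exact permutation. Positions and exons came from GENCODE M21 and promoters from RefSeq, which matched 3 of the 4 genes (not Ccl5). The 4 genes, the gene lists and the motifs were chosen with earlier results of these data known. Named genes were the 4 genes, every listed CC ligand and receptor, up to 4 genes of each other list with the largest limma difference, and the 5 closest profiles to each of the 4. Outside this rule, Vav1, Iigp1, Cxcl9, Cxcl17, Slfn1 and Slfn2 were named after their values were seen. Some genes of the lists are not reported here. Libraries were numbered in accession order and not paired. Alternatives were a pseudocount of 0.1, a minimum mean of 1 FPKM, leaving out each library, centring on the listed genes, a prior without mean dependence, a threshold of 0.01 and adjustment over all annotated protein-coding genes.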

Additional observations from a re-analysis of the deposited data

How the results depend on the processing

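The rises of Ccl8 and Ccl12 passed under all 12 alternatives. With 1 library left out, the log2 difference ran from 2.96 to 3.29 for Ccl8, 1.48 to 1.63 for Ccl12, 0.77 to 1.36 for Ccl5 and 0.89 to 1.04 for Ccr2. Ccl5 (log2 difference 1.12) was not called at a threshold of 0.01, over all annotated protein-coding genes, without knockout replicate 3 (1.04) or after centring (0.46). Ccr2 was not called over all annotated protein-coding genes (0.97) or after centring (0.31). The number of the 4 genes called was 2 after centring and over all annotated genes, and 3 or 4 with 1 library left out. Over the whole list, rises numbered 413 and falls 46. They were 67 and 162 after centring, 23 and 1 over all annotated genes, and falls were 8 at a threshold of 0.01 and 20 to 79 with 1 library left out. Ratios near 1 changed sign. With a pseudocount of 1 the log2 difference was 0.15 for Ccl5 to Ccr2, 0.16 for Ccl5 to Ptprc and 0.0084 for Ccr2 to Ptprc. With 1 library left out these ran from -0.56 to 0.16, -0.42 to 0.15 and -0.16 to 0.14, and against the summed monocyte and macrophage markers they were 0.18 for Ccl5 and 0.28 for Ccr2. The causes were not tested. No paired analysis was possible because the titles of the groups share no replicate number. Depth is unknown, so counting error could not be separated from the spread between libraries.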
